A study of Bos taurus with 37 samples.

Results

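Cell cycle and replication licensing genes were followed through single bovine blastocysts of 3 origins and the fibroblasts used for cloning. The members were taken by name from a table of 22628 gene rows: 83 rows, holding 82 symbols, began with the symbols of the A, B, D and E cyclins, the cyclin-dependent kinases CDK1 to CDK9, the CDC, MCM, ORC, E2F, PLK, AURK, BUB or GINS genes, with CCNB3 and the CDC42 genes left out. By family there were 22 CDC, 11 MCM, 10 cyclin, 9 CDK, 8 E2F, 6 ORC, 6 PLK, 4 AURK, 4 GINS and 3 BUB rows. MCM4 stood in 2 rows, called row 1 and row 2 here, whose reads may be shared between near-identical copies, so that the split between them is uncertain. Each blastocyst library was made from the poly-A RNA of 1 embryo, and a single library stood for the donor fibroblasts of each sex. The RNA was amplified by pico-profiling, a random-primed PCR amplification for very small samples. Values are FPKM, read fragments scaled to exon length and to the fragments mapped in that library. Levels are compared between genes per length, but whether the amplification took up all genes alike was not tested.

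The study set blastocysts cloned by somatic cell nuclear transfer (SCNT-BLs) beside embryos that had been manipulated but not cloned (sham NT-BLs) and beside blastocysts from in vitro fertilization (IVF-BLs), in males and females. For SCNT-BLs, 1 fibroblast from adult ear skin was placed in an oocyte stripped of its own nucleus, fused and activated, and embryos were collected 6 to 8 days later. For sham NT-BLs, a fertilized zygote lost its polar body and some ooplasm, kept both pronuclei, and was then activated with ionomycin and DMAP. There were 6 embryos of each sex and origin, except 5 female sham NT-BLs. In its account of SCNT, the study chose blastocysts with 60 to 80 blastomeres. It does not state cell numbers for IVF-BLs and sham NT-BLs separately. Male and female SCNT-BLs each came from 1 donor population of that sex, which was sequenced as 1 library. The number of donor animals is not stated, so SCNT-BLs of a sex cannot be taken as independent donors. Male and female libraries were run on 2 separate flow cells, so sex and flow cell cannot be told apart, and origins are compared here within a sex only.

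DNA replication is licensed when the origin recognition complex (ORC) and CDC6 load the MCM helicase onto DNA, and it starts when CDC7 and cyclin-dependent kinases recruit CDC45 and the GINS complex to that helicase. Passage into S phase is governed by E2F transcription factors and by the D and E cyclins, while entry into mitosis depends on cyclin B, CDC25 phosphatases, Aurora and Polo-like kinases. Exit from mitosis requires the anaphase-promoting complex with its activator CDC20, held back by the BUB checkpoint proteins until chromosomes are attached. Early embryos divide quickly and are known for abundant maternal stores of many of these products. Some members share a name with the cell cycle genes but are known for other work: CDC37 and CDC37L1 are co-chaperones, CDC5L and CDC40 act in splicing, CDC73 in transcription elongation, CDC123 in assembly of a translation initiation factor, MCM3AP in mRNA export and AURKAIP1 in the mitochondrial ribosome.

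The 35 blastocyst libraries resembled each other in total signal, with summed FPKM of 414105 to 601000, and correlation coefficients of log2 values within a group ran between 0.830 and 0.936 over 11155 genes. The table gives no read counts. A relative depth read from the smallest values, with male IVF-BL replicate 1 at 1, ran from 0.536 to 0.801 in male sham NT-BLs and from 0.779 to 1 in male IVF-BLs, and from 0.429 to 0.824 in female sham NT-BLs and 0.871 to 1.45 in female IVF-BLs. Female SCNT-BL replicates 5 and 6 had the fewest genes over 0.1 FPKM among the blastocysts. Trophectoderm keratins marked every blastocyst group, with mean KRT18 of 2354 to 3408 FPKM, against 2.38 and 3.18 FPKM in the male and female donor libraries. A list of 10 fibroblast genes did not set the donor cells apart in full. COL1A1 and 7 others averaged at most 13.6 FPKM in a blastocyst group and had at least 19.5 FPKM in each donor library, and S100A4 was listed at 0 in every blastocyst group. FN1, the remaining gene of the list, was high in embryos as well. It averaged 2844 to 5114 FPKM by blastocyst group, against 3732 and 506 FPKM in the male and female donor libraries. PDGFRA, from a list of primitive endoderm markers, averaged 30.9 to 67.6 FPKM by blastocyst group, against 145 and 77.2 FPKM. Whole blastocysts were measured, so fewer cells of a type and less RNA per cell cannot be told apart.

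Most members were well expressed. Averaged over the 35 blastocysts, 6 members lay over 100 FPKM, 46 between 10 and 100 FPKM, 26 between 1 and 10 FPKM and 5 under 1 FPKM. The mitotic kinase AURKA had the highest mean FPKM of all members, 306.7 FPKM, with a range of 158 to 563 FPKM. MCM4 row 2 at 246 FPKM, MCM6 at 210.1 FPKM and the fork factor MCM10 at 103 FPKM followed among the replication genes, and the others over 100 FPKM were CDC37 at 158 FPKM and CDC2L1, an older name of the kinase CDK11B, at 135 FPKM. Low members were the D cyclin CCND1, listed at 0 in 23 of the 35 blastocysts, CCNB1IP1, E2F2, PLK5 and CDC20B. Within families the highest levels belonged to CCNB1 among cyclins (85.3 FPKM), CDK9 among the CDKs (59.8 FPKM), ORC1 in the origin recognition complex, E2F4 among E2F factors (40.0 FPKM), GINS1 among GINS genes (40.8 FPKM), BUB3 among BUB genes (98.4 FPKM) and PLK1 among the Polo-like kinases. CDK1, the kinase partner of cyclin B, averaged only 1.93 FPKM, with 0 to 4.41 FPKM across embryos. It was low in the donor libraries as well, at 1.07 FPKM in the male and 3.83 FPKM in the female. Whether the method captured CDK1 poorly was not tested.

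**Figure D1:**
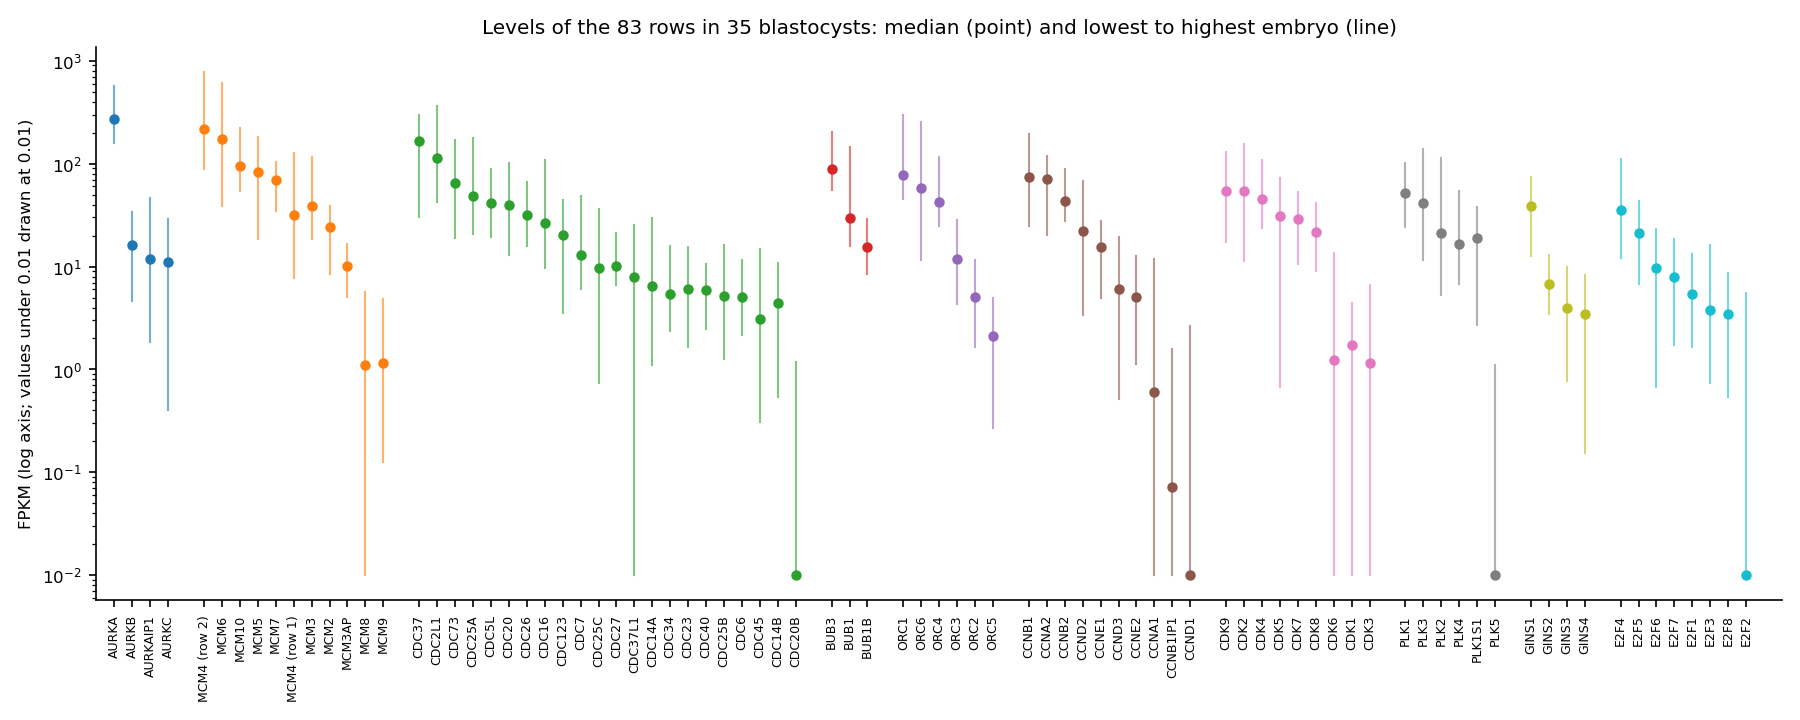
Level of each of the 83 member rows, grouped by family, in FPKM on a log axis; the point is the median and the line the lowest to highest of 35 blastocysts, with values under 0.01 FPKM drawn at 0.01. AURKA, MCM4 row 2 and MCM6 lie at the top, while CCND1, E2F2, PLK5, CCNB1IP1 and CDC20B have the lowest medians.

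As a whole the members took between 0.506% and 0.865% of the summed FPKM of a blastocyst (median 0.610%), against 0.436% in the male and 0.348% in the female donor library. The spread between embryos of a group was close to that of other genes: among members averaging over 10 FPKM the median coefficient of variation ran from 27.1% to 37.0% by group, against 28.4% to 38.2% for all genes at that level. MCM10 had the smallest spread in male SCNT-BLs (10.4%) and in male IVF-BLs (5.70%), and MCM4 row 1 had the largest, 109% in male sham NT-BLs. Helicase subunits, which act as a hexamer of MCM2 to MCM7, did not have equal FPKM. Among MCM2, MCM3, MCM5, MCM6 and MCM7, MCM6 was the highest in 30 of 35 blastocysts and MCM5 in the other 5, and MCM2 was the lowest in 31 and MCM3 in 4. The ratio of the highest to the lowest of these 5 genes ran from 3.57 to 30.4 with a median of 8.30.

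Differences by origin were then tested in each sex with limma on log2(FPKM + 1) over every gene with a mean over 0.1 FPKM, with Benjamini-Hochberg adjusted p under 0.05 as the call. The comparisons share embryos: SCNT-BLs and sham NT-BLs were set against the same IVF-BLs, and then against each other. In male SCNT-BLs against male IVF-BLs, 6 of the 81 members tested were higher and 9 lower, where 3.34% and 3.64% of all genes tested were called higher and lower. In female SCNT-BLs against female IVF-BLs no member was called in either direction, where 0.21% of all genes were higher and 0.111% lower, and 12 of 81 members had an unadjusted p under 0.05. Male sham NT-BLs had 7 of 80 members higher and 7 lower than male IVF-BLs, against 6.13% and 5.96% of all genes. Female sham NT-BLs had 10 of 81 members higher and 7 lower than female IVF-BLs, against 7.03% and 6.47% of all genes, and the count of 17 became 11 without female sham NT-BL replicate 2, 3 or 4. Between male SCNT-BLs and male sham NT-BLs, 5 of 80 members were higher and 11 lower in SCNT-BLs, against 5.67% and 6.13% of all genes. Between female SCNT-BLs and female sham NT-BLs, 4 of 81 were higher and 4 lower in SCNT-BLs, against 5.21% and 6.07% of all genes, and the count of 8 became 13 without female SCNT-BL replicates 5 and 6.

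The members did not shift as one block. Their median log2 difference was 0.01 in male SCNT-BLs against IVF-BLs, beside -0.01 over all genes tested, and -0.06 in female SCNT-BLs against IVF-BLs, beside -0.04. For sham NT-BLs against IVF-BLs it was 0.10 in males, beside -0.02 over all genes, and -0.16 in females, beside -0.09. For SCNT-BLs against sham NT-BLs it was -0.01 in males, beside 0.01, and 0.03 in females, beside 0.04. In all, 36 of 83 members were called in at least 1 of the 6 comparisons, against 26.6% of all genes tested. These shares were not matched for level, and 55.4% of members averaged 10 to 100 FPKM over the blastocysts, against 20.7% of all gene rows. Of the 79 members tested in both sexes, 4 were higher and 3 lower in sham NT-BLs of both, against 3.08% and 2.54% of all genes. Of the 74 calls, which include those of the sex-by-origin test given last, 50 held when each embryo was left out in turn, and none changed sign under any alternative tried.

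MCM5, a subunit of the helicase loaded at origins, had the lowest adjusted p of all members in male SCNT-BLs against IVF-BLs. It stood at 18.5 to 37.8 FPKM (median 29.4) in male SCNT-BLs, at 55.3 to 137 FPKM (median 92.0) in male sham NT-BLs and at 88.2 to 131 FPKM (median 108) in male IVF-BLs. Every male SCNT-BL was below every other male blastocyst, and the log2 difference was -1.91 ± 0.18 (SE), adjusted p = 2.47e-05 against IVF-BLs and -1.63 ± 0.25 (SE), adjusted p = 0.000578 against sham NT-BLs. In females MCM5 covered 43.004 to 122 FPKM (median 77.1) in SCNT-BLs, the 5 sham NT-BLs had 182, 113, 118, 183 and 75.8 FPKM, and IVF-BLs had 68.9 to 88.3 FPKM (median 73.1). Female SCNT-BLs and IVF-BLs overlapped (log2 difference 0.04 ± 0.24 (SE), adjusted p = 0.957), and sham NT-BLs were higher than IVF-BLs (0.74 ± 0.23 (SE), adjusted p = 0.0451), a call that was lost without replicate 1, 2, 3 or 4 of the female sham NT-BLs, or replicate 1, 2, 3, 4, 5 or 6 of the female IVF-BLs (adjusted p up to 0.126), and also with no filter (adjusted p = 0.0547).

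MCM2, a subunit at the gate of the helicase ring, also fell in male SCNT-BLs. It measured 8.56 to 18.3 FPKM (median 13.3) in male SCNT-BLs, 17.6 to 35.7 FPKM (median 27.6) in male sham NT-BLs and 17.8 to 39.0 FPKM (median 28.5) in male IVF-BLs. SCNT-BLs overlapped both other groups only at their edges, with a log2 difference of -1.05 ± 0.25 (SE), adjusted p = 0.0185 against IVF-BLs and -0.98 ± 0.24 (SE), adjusted p = 0.0133 against sham NT-BLs. Female MCM2 was 22.1 to 35.5 FPKM (median 26.7) in SCNT-BLs, 24.3, 13.2, 18.1, 18.7 and 35.9 FPKM in sham NT-BLs and 10.7 to 34.6 FPKM (median 26.2) in IVF-BLs, with no call.

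The MCM4 rows moved in opposite directions in male SCNT-BLs. Row 1 was at 50.6 to 126 FPKM (median 93.2) in male SCNT-BLs and 26.8 to 52.7 FPKM (median 35.5) in male IVF-BLs (log2 difference 1.24 ± 0.24 (SE), adjusted p = 0.00611), and the ranges met only at their edges. Row 2 was at 197 to 338 FPKM (median 231) in male SCNT-BLs and 344 to 541 FPKM (median 365) in male IVF-BLs, without overlap (-0.66 ± 0.17 (SE), adjusted p = 0.0289), and this call was lost without replicate 2, 3, 4 or 5 of the male SCNT-BLs, or replicate 1 or 2 of the male IVF-BLs (adjusted p up to 0.0688), and also with all 6 blastocyst groups in 1 fit (adjusted p = 0.176). Row 2 exceeded row 1 by a ratio of 1.91 to 4.25 in the male SCNT-BLs and of 7.45 to 13.9 in the male IVF-BLs. The call of row 1 was lost with all 6 blastocyst groups in 1 fit (adjusted p = 0.0646), and both rows kept their sign there and under median-centring.

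In male sham NT-BLs the rows of MCM4 lay at 13.6 to 125 FPKM (median 24.0) for row 1 and 103 to 293 FPKM (median 164) for row 2. Row 2 was lower than in male IVF-BLs (-1.27 ± 0.24 (SE), adjusted p = 0.00232) with no overlap, and row 1 was lower than in male SCNT-BLs, with a log2 difference of 1.60 ± 0.42 (SE), adjusted p = 0.0201 for SCNT-BLs against sham NT-BLs; replicate 3 of the male sham NT-BLs, at 125 FPKM, stood apart from the other 5. Female row 1 was 26.9 to 49.8 FPKM (median 33.4) in SCNT-BLs, 56.9, 54.7, 29.4, 7.82 and 8.78 FPKM in sham NT-BLs and 11.5 to 26.8 FPKM (median 17.3) in IVF-BLs. No embryo of the female SCNT-BLs lay below the highest female IVF-BL, but the test missed the threshold (0.98 ± 0.23 (SE), adjusted p = 0.0962). Female row 2 was 183 to 775 FPKM (median 236) in SCNT-BLs, 213, 171, 105, 118 and 89.4 FPKM in sham NT-BLs and 104 to 246 FPKM (median 165) in IVF-BLs, with no call.

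MCM3, MCM6 and MCM7, the other helicase subunits, were called in no comparison. MCM6 reached 119 to 276 FPKM (median 206) in male SCNT-BLs, 134 to 612 FPKM (median 343) in male sham NT-BLs and 124 to 253 FPKM (median 182) in male IVF-BLs. In females it was 38.4 to 228 FPKM (median 149) in SCNT-BLs, 127, 95.4, 142, 145 and 454 FPKM in sham NT-BLs and 103 to 241 FPKM (median 169) in IVF-BLs. All 3 groups overlapped in each sex. MCM7 had 34.8 to 74.4 FPKM (median 66.4) in male SCNT-BLs, 53.8 to 86.4 FPKM (median 68.5) in male sham NT-BLs and 52.7 to 97.5 FPKM (median 72.0) in male IVF-BLs. Female MCM7 was 45.0 to 88.7 FPKM (median 71.2) in SCNT-BLs, 52.7, 82.1, 80.3, 66.0 and 76.8 FPKM in sham NT-BLs and 56.9 to 103 FPKM (median 77.6) in IVF-BLs, with overlapping ranges in both sexes.

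MCM3 had 24.1 to 49.7 FPKM (median 38.0) in male SCNT-BLs, 21.3 to 115 FPKM (median 64.5) in male sham NT-BLs and 24.6 to 50.5 FPKM (median 37.6) in male IVF-BLs. In females it was 23.6 to 45.1 FPKM (median 40.3) in SCNT-BLs, 38.7, 31.6, 35.1, 42.7 and 78.9 FPKM in sham NT-BLs and 18.5 to 40.0 FPKM (median 30.7) in IVF-BLs. In male sham NT-BLs, replicates 4, 5 and 6 were the high ones for both genes, at 582, 612 and 405 FPKM of MCM6 and 88.2, 115 and 76.9 FPKM of MCM3, while in female sham NT-BLs replicate 5 alone was far above the others.

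MCM10, which stabilizes the active helicase, was called in females only between sham NT-BLs and IVF-BLs. It stood at 122, 172, 220.2, 179 and 92.7 FPKM in female sham NT-BLs and 54.6 to 101 FPKM (median 93.0) in female IVF-BLs, where 4 of 5 sham embryos exceeded every IVF embryo (log2 difference 0.84 ± 0.25 (SE), adjusted p = 0.0377). The call was lost without replicate 2, 3 or 4 of the female sham NT-BLs, or replicate 1, 2 or 6 of the female IVF-BLs (adjusted p up to 0.106), and also with no filter (adjusted p = 0.0538). MCM9, known with MCM8 for homologous recombination, was at 0.209 to 1.16 FPKM (median 0.422) in male SCNT-BLs and 1.15 to 4.87 FPKM (median 2.16) in male sham NT-BLs, near the low end of the measured levels (-1.17 ± 0.30 (SE), adjusted p = 0.0158).

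**Figure D2:**
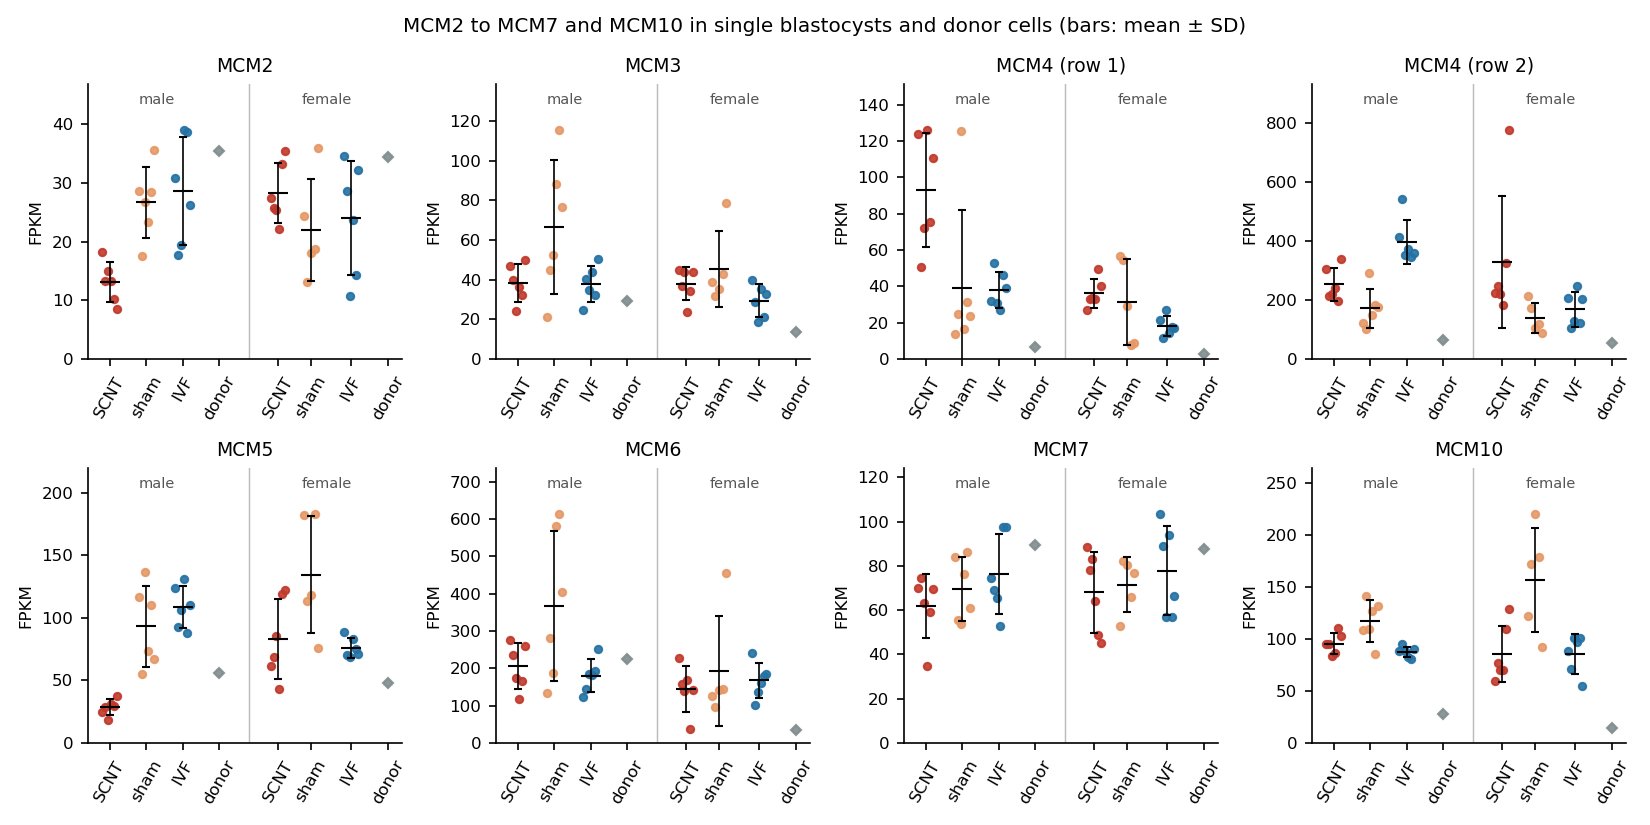
FPKM of 8 MCM gene rows in each embryo and donor library; columns run SCNT-BLs, sham NT-BLs, IVF-BLs and donor cells for males and then for females, points are embryos, and bars give mean ± SD (n = 6, or 5 for female sham NT-BLs), cut at 0. All 6 male SCNT-BLs lie below the other male blastocysts for MCM5. Set against male IVF-BLs, male SCNT-BLs lie mostly higher for MCM4 row 1 and lower for row 2.

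Of the origin recognition complex, which marks where helicases are loaded, ORC6 was called in 4 comparisons. It was measured at 116 to 253 FPKM (median 191) in male sham NT-BLs and 36.3 to 68.2 FPKM (median 62.0) in male IVF-BLs, and the groups did not overlap (log2 difference 1.64 ± 0.24 (SE), adjusted p = 0.000386). Female sham NT-BLs had 72.7, 209.5, 178, 206 and 118 FPKM, against 15.6 to 42.2 FPKM (median 37.9) in female IVF-BLs, again without overlap (2.09 ± 0.31 (SE), adjusted p = 0.000486). ORC6 in SCNT-BLs was 33.7 to 111 FPKM (median 70.6) in males and 11.5 to 23.1 FPKM (median 20.9) in females. Against sham NT-BLs of the same sex the SCNT-BLs were lower with no overlap, by a log2 difference of -1.45 ± 0.30 (SE), adjusted p = 0.00433 in males and -2.91 ± 0.29 (SE), adjusted p = 4.57e-05 in females. Female SCNT-BLs against IVF-BLs did not pass the threshold (-0.81 ± 0.27 (SE), adjusted p = 0.241).

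ORC4, another subunit of that complex, was higher in male SCNT-BLs. Its values were 50.2 to 116 FPKM (median 62.7) in male SCNT-BLs and 30.4 to 62.4 FPKM (median 33.4) in male IVF-BLs, and the ranges overlapped (0.91 ± 0.24 (SE), adjusted p = 0.0328). That call was lost without replicate 2, 4 or 5 of the male SCNT-BLs, or replicate 1, 2, 3, 5 or 6 of the male IVF-BLs (adjusted p up to 0.0734), and also with no filter (adjusted p = 0.0555). ORC1, the subunit with the highest level, was called in no comparison and lay at 59.2 to 98.2 FPKM (median 79.8) in male SCNT-BLs, 45.8 to 111 FPKM (median 83.05) in male sham NT-BLs and 73.5 to 113 FPKM (median 88.3) in male IVF-BLs. In females ORC1 was 51.9 to 296 FPKM (median 71.5) in SCNT-BLs, 50.3, 103, 63.6, 73.3 and 64.4 FPKM in sham NT-BLs and 62.6 to 148 FPKM (median 98.8) in IVF-BLs, with replicate 6 of the SCNT-BLs far above the rest. CDC6, the loading factor, was low everywhere, between 2.17 and 11.5 FPKM over all blastocysts.

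GINS1, part of the complex that turns the loaded helicase into the active one, was higher in male SCNT-BLs. It was at 41.5 to 74.1 FPKM (median 57.3) in male SCNT-BLs, 14.0 to 59.1 FPKM (median 41.1) in male sham NT-BLs and 16.8 to 33.2 FPKM (median 28.5) in male IVF-BLs. All male SCNT-BLs exceeded all male IVF-BLs (log2 difference 1.10 ± 0.20 (SE), adjusted p = 0.00433). Female GINS1 gave 12.7 to 54.7 FPKM (median 44.9) in SCNT-BLs, 36.0, 48.7, 36.5, 31.3 and 41.7 FPKM in sham NT-BLs and 26.0 to 73.2 FPKM (median 36.6) in IVF-BLs, with overlapping ranges and no call.

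CDC7, the kinase that fires licensed origins, was higher after the sham procedure. The 5 female sham NT-BLs had 21.9, 22.3, 31.4, 25.5 and 24.1 FPKM, against 6.92 to 10.1 FPKM (median 8.24) in female IVF-BLs, without overlap (1.47 ± 0.22 (SE), adjusted p = 0.000472), and female SCNT-BLs, at 7.54 to 14.9 FPKM (median 11.5), were below every sham embryo (-1.10 ± 0.24 (SE), adjusted p = 0.00765). Male CDC7 was at 12.6 to 48.2 FPKM (median 25.3) in sham NT-BLs and 6.09 to 13.1 FPKM (median 12.2) in IVF-BLs (1.10 ± 0.32 (SE), adjusted p = 0.0316). The male call was lost without replicate 2, 4 or 5 of the male sham NT-BLs, or replicate 3, 4 or 5 of the male IVF-BLs (adjusted p up to 0.0796). CDC45, the helicase cofactor, was called nowhere and ranged from 0.310 to 14.9 FPKM over the blastocysts.

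From a list of 28 other genes of the replication origin and fork, 26 were tested in each comparison. In male sham NT-BLs 6 were higher and 2 lower than in IVF-BLs, against 6.13% and 5.96% of all genes, and in female sham NT-BLs 8 were higher and 3 lower, against 7.03% and 6.47%. The list's median log2 difference was 0.23 in males, beside -0.02 over all genes, and 0.13 in females, beside -0.09. DBF4, the regulatory subunit of the CDC7 kinase, was at 81.5 to 216 FPKM (median 139) in male sham NT-BLs and 38.0 to 79.4 FPKM (median 52.1) in male IVF-BLs (log2 difference 1.35, adjusted p = 0.00181). Female sham NT-BLs had DBF4 at 137, 129, 108, 112 and 159 FPKM, against 24.5 to 56.7 FPKM (median 36.7) in female IVF-BLs (1.81, adjusted p = 0.00018), so both subunits of this kinase were higher in the sham NT-BLs of each sex. LIG1, the ligase that joins lagging-strand fragments (1.67 in males, 1.94 in females), CLSPN (1.17 and 0.95), and the primase subunits PRIM1 (1.47 and 1.14) and PRIM2 (0.89 and 1.22) were also higher in both sexes. PCNA, the sliding clamp, was lower, at 1.40 to 5.77 FPKM (median 2.90) in male sham NT-BLs and 4.73 to 14.8 FPKM (median 9.58) in male IVF-BLs (-1.41, adjusted p = 0.0178), and at 2.50, 1.23, 1.83, 4.42 and 1.71 FPKM in female sham NT-BLs and 5.24 to 18.0 FPKM (median 7.91) in female IVF-BLs (-1.62, adjusted p = 0.00785).

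For male SCNT-BLs against IVF-BLs the same list had 3 genes higher (CLSPN, the licensing inhibitor GMNN and TOPBP1) and 1 lower (POLA2), against 3.34% and 3.64% of all genes, with a median of 0.18, beside -0.01 over all genes. For female SCNT-BLs against IVF-BLs it had none in either direction, against 0.21% and 0.111% of all genes, with a median of -0.03, beside -0.04, and 2 of the 26 at an unadjusted p under 0.05. Against sham NT-BLs, male SCNT-BLs had 3 higher and 4 lower, where 5.67% and 6.13% of all genes were called, and female SCNT-BLs 1 higher and 6 lower, where 5.21% and 6.07% were.

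E2F4, a repressor that acts with the pocket proteins, was the E2F factor with the highest level and fell in male SCNT-BLs. It gave 12.2 to 28.3 FPKM (median 17.6) in male SCNT-BLs, 23.6 to 58.3 FPKM (median 33.3) in male sham NT-BLs and 32.4 to 45.7 FPKM (median 41.3) in male IVF-BLs. No male SCNT-BL reached the lowest IVF-BL (log2 difference -1.16 ± 0.21 (SE), adjusted p = 0.00357). The difference from sham NT-BLs (-0.98 ± 0.28 (SE), adjusted p = 0.0296) was lost as a call without replicate 3, 5 or 6 of the male SCNT-BLs, or replicate 3, 4 or 5 of the male sham NT-BLs (adjusted p up to 0.0701). In females E2F4 was at 29.3 to 88.2 FPKM (median 34.5) in SCNT-BLs, 81.1, 36.3, 35.8, 23.1 and 29.4 FPKM in sham NT-BLs and 32.3 to 111 FPKM (median 53.4) in IVF-BLs, with no call.

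E2F5, which also acts as a repressor, was higher in female sham NT-BLs, at 41.9, 21.0, 41.5, 33.5 and 14.7 FPKM, against 7.78 to 10.4 FPKM (median 8.70) in female IVF-BLs, with no overlap (1.58 ± 0.28 (SE), adjusted p = 0.00191). Male E2F5 was 18.4 to 26.3 FPKM (median 21.6) in sham NT-BLs and 6.78 to 42.4 FPKM (median 22.6) in IVF-BLs (0.18 ± 0.37 (SE), adjusted p = 0.794). E2F6, a repressor independent of pocket proteins, was at 9.06 to 23.4 FPKM (median 19.0) in male SCNT-BLs and 4.48 to 10.02 FPKM (median 9.38) in male IVF-BLs (1.06 ± 0.29 (SE), adjusted p = 0.0349), a call lost without replicate 1, 3, 4 or 5 of the male SCNT-BLs, or replicate 2 or 4 of the male IVF-BLs (adjusted p up to 0.0802). Female E2F6 in SCNT-BLs, 8.71 to 12.8 FPKM (median 11.5), exceeded all sham NT-BLs, 4.38, 0.679, 5.27, 5.04 and 8.13 FPKM (1.28 ± 0.39 (SE), adjusted p = 0.0454), a call lost without replicate 1, 2, 3, 4 or 5 of the female SCNT-BLs, or replicate 1, 2, 3 or 4 of the female sham NT-BLs (adjusted p up to 0.0876), and also without female SCNT-BL replicates 5 and 6 (adjusted p = 0.0693), with median-centring (adjusted p = 0.0502), with no filter (adjusted p = 0.0646) and with a pseudocount of 0.1 (adjusted p = 0.057). E2F7, an atypical repressor, was at 10.03, 9.35, 7.45, 18.4 and 9.14 FPKM in female sham NT-BLs and 3.46 to 6.85 FPKM (median 4.67) in female IVF-BLs (0.98 ± 0.30 (SE), adjusted p = 0.0397), lost without replicate 1, 2, 4 or 5 of the female sham NT-BLs, or replicate 1, 2, 3, 4 or 5 of the female IVF-BLs (adjusted p up to 0.122), and also with all 6 blastocyst groups in 1 fit (adjusted p = 0.0584). The activators E2F1, E2F2 and E2F3, and E2F8, were called in no comparison.

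CCNB1, the cyclin of mitotic entry, was lower in sham NT-BLs than in both other origins in each sex. In males it was at 76.7 to 194 FPKM (median 144) in SCNT-BLs, 34.5 to 93.3 FPKM (median 51.8) in sham NT-BLs and 73.6 to 133 FPKM (median 98.4) in IVF-BLs. Male sham NT-BLs were lower than IVF-BLs (log2 difference -0.88 ± 0.23 (SE), adjusted p = 0.0202), and male SCNT-BLs were higher than sham NT-BLs (1.30 ± 0.27 (SE), adjusted p = 0.0049), with ranges that overlapped in both. Female SCNT-BLs had 61.1 to 104 FPKM (median 71.2), the 5 sham NT-BLs had 48.7, 30.5, 25.0, 27.1 and 50.9 FPKM, and IVF-BLs had 58.0 to 145 FPKM (median 74.7). The female sham NT-BLs lay below every other female blastocyst (-1.28 ± 0.30 (SE), adjusted p = 0.0102 against IVF-BLs, and 1.06 ± 0.24 (SE), adjusted p = 0.0109 for SCNT-BLs against sham NT-BLs).

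Of the D cyclins, which link growth signals to the cycle, CCND2 was lower in both manipulated male groups. It was at 5.78 to 28.3 FPKM (median 16.8) in male SCNT-BLs, 3.89 to 17.7 FPKM (median 12.9) in male sham NT-BLs and 25.1 to 49.9 FPKM (median 42.97) in male IVF-BLs. The log2 difference from IVF-BLs was -1.40 ± 0.34 (SE), adjusted p = 0.0206 for SCNT-BLs, with overlap, and -1.72 ± 0.32 (SE), adjusted p = 0.00206 for sham NT-BLs, with none. The SCNT call was lost with all 6 blastocyst groups in 1 fit (adjusted p = 0.0515). Female CCND2 was 6.22 to 44.8 FPKM (median 26.5) in SCNT-BLs, 32.9, 3.42, 10.6, 6.54 and 15.0 FPKM in sham NT-BLs and 13.4 to 68.6 FPKM (median 28.6) in IVF-BLs, with no call.

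CCND3 was lower in sham NT-BLs of both sexes than in IVF-BLs. Males had 0.511 to 9.48 FPKM (median 4.75) in sham NT-BLs and 8.89 to 16.6 FPKM (median 12.9) in IVF-BLs (-1.42 ± 0.42 (SE), adjusted p = 0.0367), a call lost without replicate 4, 5 or 6 of the male sham NT-BLs, or replicate 1, 2 or 5 of the male IVF-BLs (adjusted p up to 0.0794), and also with no filter (adjusted p = 0.0588). Females had 5.60, 5.06, 3.74, 2.26 and 2.56 FPKM in sham NT-BLs and 4.57 to 19.2 FPKM (median 11.7) in IVF-BLs (-1.25 ± 0.39 (SE), adjusted p = 0.0443), lost without replicate 2, 3, 4 or 5 of the female sham NT-BLs, or replicate 1, 3, 4 or 6 of the female IVF-BLs (adjusted p up to 0.107), and also with median-centring (adjusted p = 0.0623) and with no filter (adjusted p = 0.0635). The A cyclins, the E cyclins and CCNB2 were called in no comparison, and CCNA2 lay between 20.2 and 119 FPKM over the blastocysts.

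CDC25A, the phosphatase that switches on cyclin-dependent kinases, was lower in male sham NT-BLs. Its values were 66.5 to 118 FPKM (median 81.5) in male SCNT-BLs, 24.5 to 45.4 FPKM (median 37.4) in male sham NT-BLs and 54.2 to 116 FPKM (median 86.5) in male IVF-BLs. The sham NT-BLs overlapped neither group (-1.21 ± 0.23 (SE), adjusted p = 0.00284 against IVF-BLs, and 1.24 ± 0.21 (SE), adjusted p = 0.00117 for SCNT-BLs against sham NT-BLs). Female CDC25A was 45.8 to 179 FPKM (median 60.1) in SCNT-BLs, 42.6, 35.1, 26.4, 20.8 and 22.0 FPKM in sham NT-BLs and 29.9 to 48.4 FPKM (median 40.5) in IVF-BLs. All female SCNT-BLs were above all sham NT-BLs (1.41 ± 0.34 (SE), adjusted p = 0.0155), and the other female comparisons were not called.

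CDK9, which drives transcription elongation, was lower in male SCNT-BLs than in both other male groups without overlap. It was at 17.2 to 27.7 FPKM (median 26.7) in male SCNT-BLs, 60.7 to 97.3 FPKM (median 80.2) in male sham NT-BLs and 37.9 to 73.3 FPKM (median 47.8) in male IVF-BLs. The log2 difference was -0.97 ± 0.19 (SE), adjusted p = 0.00721 against IVF-BLs and -1.65 ± 0.20 (SE), adjusted p = 9.72e-05 against sham NT-BLs. Sham NT-BLs were higher than IVF-BLs (0.69 ± 0.21 (SE), adjusted p = 0.0386), a call lost without replicate 1, 4, 5 or 6 of the male sham NT-BLs, or replicate 1, 2, 3, 4 or 5 of the male IVF-BLs (adjusted p up to 0.0886), and also with all 6 blastocyst groups in 1 fit (adjusted p = 0.0596). Female CDK9 was 42.7 to 94.1 FPKM (median 56.7) in SCNT-BLs, 45.4, 129, 66.8, 72.4 and 71.4 FPKM in sham NT-BLs and 40.3 to 129 FPKM (median 53.1) in IVF-BLs, with no call.

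CDK2, the partner of the E and A cyclins in S phase, was at 11.4 to 53.9 FPKM (median 38.3) in male SCNT-BLs and 62.0 to 156 FPKM (median 81.8) in male sham NT-BLs, without overlap (-1.42 ± 0.34 (SE), adjusted p = 0.0125). CDK3 was at 0.674 to 4.06 FPKM (median 3.17) in male sham NT-BLs and 0 to 0.896 FPKM (median 0.376) in male IVF-BLs (1.30 ± 0.34 (SE), adjusted p = 0.0179). The remaining kinases of the family, CDK1 and CDK4 to CDK8, were called in no comparison. From a list of 22 CDK inhibitors, kinases and pocket proteins, of which 18 to 20 were tested, 3 were higher and 2 lower in male sham NT-BLs than in IVF-BLs, against 6.13% and 5.96% of all genes, and 3 higher and 1 lower in female sham NT-BLs, against 7.03% and 6.47%. Their median log2 difference was 0.00 in males, beside -0.02 over all genes, and -0.08 in females, beside -0.09. The inhibitor gene CDKN2A (1.07 in males, 2.45 in females), the CDK-binding protein CKS1B (1.37 and 1.96) and LIN54 (1.01 and 1.77) were the ones higher in both sexes, and MYBL2 (-1.26 and -1.19) was lower in both. In SCNT-BLs against IVF-BLs 1 was higher and 2 lower in males, against 3.34% and 3.64% of all genes, and none was called in females, against 0.21% and 0.111% (3 of 20 at an unadjusted p under 0.05). Against sham NT-BLs, SCNT-BLs had none higher and 2 lower in males, against 5.67% and 6.13%, and 1 higher and 3 lower in females, against 5.21% and 6.07%.

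CDC20, the activator of the anaphase-promoting complex, was called in 5 of the 6 comparisons. In males it was at 23.8 to 38.6 FPKM (median 32.3) in SCNT-BLs, 12.9 to 19.8 FPKM (median 17.1) in sham NT-BLs and 42.7 to 102 FPKM (median 65.5) in IVF-BLs, and no pair of these groups overlapped. Male sham NT-BLs were lower than IVF-BLs by a log2 difference of -1.90 ± 0.23 (SE), adjusted p = 9.51e-05, male SCNT-BLs were lower than IVF-BLs (-1.003 ± 0.21 (SE), adjusted p = 0.0112), and male SCNT-BLs were higher than sham NT-BLs (0.90 ± 0.20 (SE), adjusted p = 0.00741). Female CDC20 was 39.7 to 66.5 FPKM (median 47.1) in SCNT-BLs, 16.7, 14.0, 15.5, 14.3 and 18.5 FPKM in sham NT-BLs and 45.0 to 73.2 FPKM (median 54.4) in IVF-BLs. Female sham NT-BLs lay below both other groups (-1.73 ± 0.20 (SE), adjusted p = 7.7e-05 against IVF-BLs, and 1.57 ± 0.21 (SE), adjusted p = 0.000356 for SCNT-BLs against sham NT-BLs), whereas female SCNT-BLs and IVF-BLs overlapped (-0.16 ± 0.19 (SE), adjusted p = 0.773).

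Those subunits of the anaphase-promoting complex that bear CDC names moved less uniformly. CDC16 was at 19.8 to 54.1 FPKM (median 33.9) in male SCNT-BLs and 10.8 to 27.8 FPKM (median 12.5) in male sham NT-BLs (1.18 ± 0.30 (SE), adjusted p = 0.0171). In females CDC16 was at 31.3, 13.3, 21.5, 9.75 and 12.6 FPKM in sham NT-BLs and 26.5 to 55.6 FPKM (median 38.9) in IVF-BLs (-1.23 ± 0.30 (SE), adjusted p = 0.0128). CDC23 was higher in male SCNT-BLs, with 6.83 to 15.0 FPKM (median 11.6), against 1.64 to 9.21 FPKM (median 3.37) in male IVF-BLs (1.42 ± 0.33 (SE), adjusted p = 0.0176). CDC26 and CDC27 were called in no comparison. Among the ANAPC genes of this complex, which are not members, ANAPC10 was higher in male SCNT-BLs than in IVF-BLs (2.26, adjusted p = 0.0154). It was also higher there than in male sham NT-BLs (1.01, adjusted p = 0.0348). ANAPC11 was higher in female sham NT-BLs than in IVF-BLs (1.94, adjusted p = 0.0297), and no other listed ANAPC gene was called within a sex.

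PLK4, the kinase that starts centriole duplication, was higher in sham NT-BLs of both sexes. It was at 13.8 to 37.5 FPKM (median 17.4) in male SCNT-BLs, 30.7 to 53.8 FPKM (median 34.2) in male sham NT-BLs and 8.14 to 16.6 FPKM (median 13.6) in male IVF-BLs. Sham NT-BLs exceeded all male IVF-BLs (1.48 ± 0.23 (SE), adjusted p = 0.000692), and male SCNT-BLs were lower than sham NT-BLs (-0.93 ± 0.25 (SE), adjusted p = 0.0247), the second call being lost without replicate 2, 3 or 4 of the male SCNT-BLs, or replicate 5 of the male sham NT-BLs (adjusted p up to 0.0597). Female PLK4 was 10.1 to 24.0 FPKM (median 12.3) in SCNT-BLs, 18.4, 26.0, 24.8, 37.3 and 27.8 FPKM in sham NT-BLs and 6.71 to 14.8 FPKM (median 12.8) in IVF-BLs, and sham NT-BLs again exceeded all IVF-BLs (1.12 ± 0.26 (SE), adjusted p = 0.0097).

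Other Polo-like kinases gave fewer calls. PLK3, a stress-responsive kinase, was at 11.7 to 35.4 FPKM (median 22.1) in male SCNT-BLs and 25.4 to 127 FPKM (median 56.7) in male IVF-BLs (-1.39 ± 0.35 (SE), adjusted p = 0.0253), a call lost without replicate 1 or 3 of the male SCNT-BLs, or replicate 2 or 3 of the male IVF-BLs (adjusted p up to 0.0602), and also with no filter (adjusted p = 0.0542). PLK2 was at 7.41, 13.01, 5.30, 13.4 and 21.4 FPKM in female sham NT-BLs and 15.8 to 42.8 FPKM (median 24.4) in female IVF-BLs (-1.17 ± 0.35 (SE), adjusted p = 0.0389), lost without replicate 1, 2, 3 or 4 of the female sham NT-BLs, or replicate 3, 4 or 5 of the female IVF-BLs (adjusted p up to 0.105), and also with all 6 blastocyst groups in 1 fit (adjusted p = 0.094), with median-centring (adjusted p = 0.0551) and with no filter (adjusted p = 0.064). PLK1S1, an older name of the centrosomal gene KIZ, was at 21.3, 13.001, 35.4, 26.6 and 33.7 FPKM in female sham NT-BLs and 8.86 to 15.0 FPKM (median 9.996) in female IVF-BLs (1.08 ± 0.28 (SE), adjusted p = 0.0182), lost without replicate 3 of the female sham NT-BLs (adjusted p up to 0.058), and also with all 6 blastocyst groups in 1 fit (adjusted p = 0.0533). PLK1, the kinase of mitotic entry, was called in no comparison within a sex.

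AURKA had the highest level of the family and was called in no comparison, with 190.4 to 313 FPKM (median 248) in male SCNT-BLs, 221 to 484 FPKM (median 320.2) in male sham NT-BLs and 239 to 518 FPKM (median 266) in male IVF-BLs. In females AURKA was at 231 to 563 FPKM (median 309) in SCNT-BLs, 301, 273, 288, 292 and 158 FPKM in sham NT-BLs and 219.9 to 476 FPKM (median 274) in IVF-BLs, and all groups overlapped. AURKB, the kinase of the chromosomal passenger complex, was at 15.1 to 34.3 FPKM (median 25.0) in male sham NT-BLs and 4.62 to 16.9 FPKM (median 10.7) in male IVF-BLs (1.24 ± 0.31 (SE), adjusted p = 0.0135). The checkpoint kinase BUB1 was lower in female sham NT-BLs, at 24.2, 15.98, 22.2, 28.3 and 15.9 FPKM, against 29.5 to 69.4 FPKM (median 45.3) in female IVF-BLs, without overlap (-1.13 ± 0.25 (SE), adjusted p = 0.00778).

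BUB3, the checkpoint adaptor, lay higher in sham NT-BLs in 3 comparisons. Male BUB3 was 64.5 to 109 FPKM (median 82.3) in SCNT-BLs, 119.6 to 205 FPKM (median 127) in sham NT-BLs and 76.2 to 129 FPKM (median 96.1) in IVF-BLs, and SCNT-BLs did not overlap sham NT-BLs (-0.68 ± 0.20 (SE), adjusted p = 0.0323). Female BUB3 was 55.4 to 79.6 FPKM (median 76.2) in SCNT-BLs, 98.1, 129, 129, 175 and 87.8 FPKM in sham NT-BLs and 60.1 to 91.7 FPKM (median 67.4) in IVF-BLs, with log2 differences of 0.76 ± 0.21 (SE), adjusted p = 0.0254 for sham NT-BLs against IVF-BLs and -0.72 ± 0.22 (SE), adjusted p = 0.0433 for SCNT-BLs against sham NT-BLs. All 3 calls depended on single embryos: the male one was lost without replicate 1, 3, 4 or 5 of the male SCNT-BLs, or replicate 4 of the male sham NT-BLs (adjusted p up to 0.0797), the female sham against IVF one without replicate 2, 3 or 4 of the female sham NT-BLs, or replicate 3 or 4 of the female IVF-BLs (adjusted p up to 0.0756), and the female SCNT against sham one without replicate 1, 2, 3, 4 or 5 of the female SCNT-BLs, or replicate 2, 3 or 4 of the female sham NT-BLs (adjusted p up to 0.124).

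**Figure D3:**
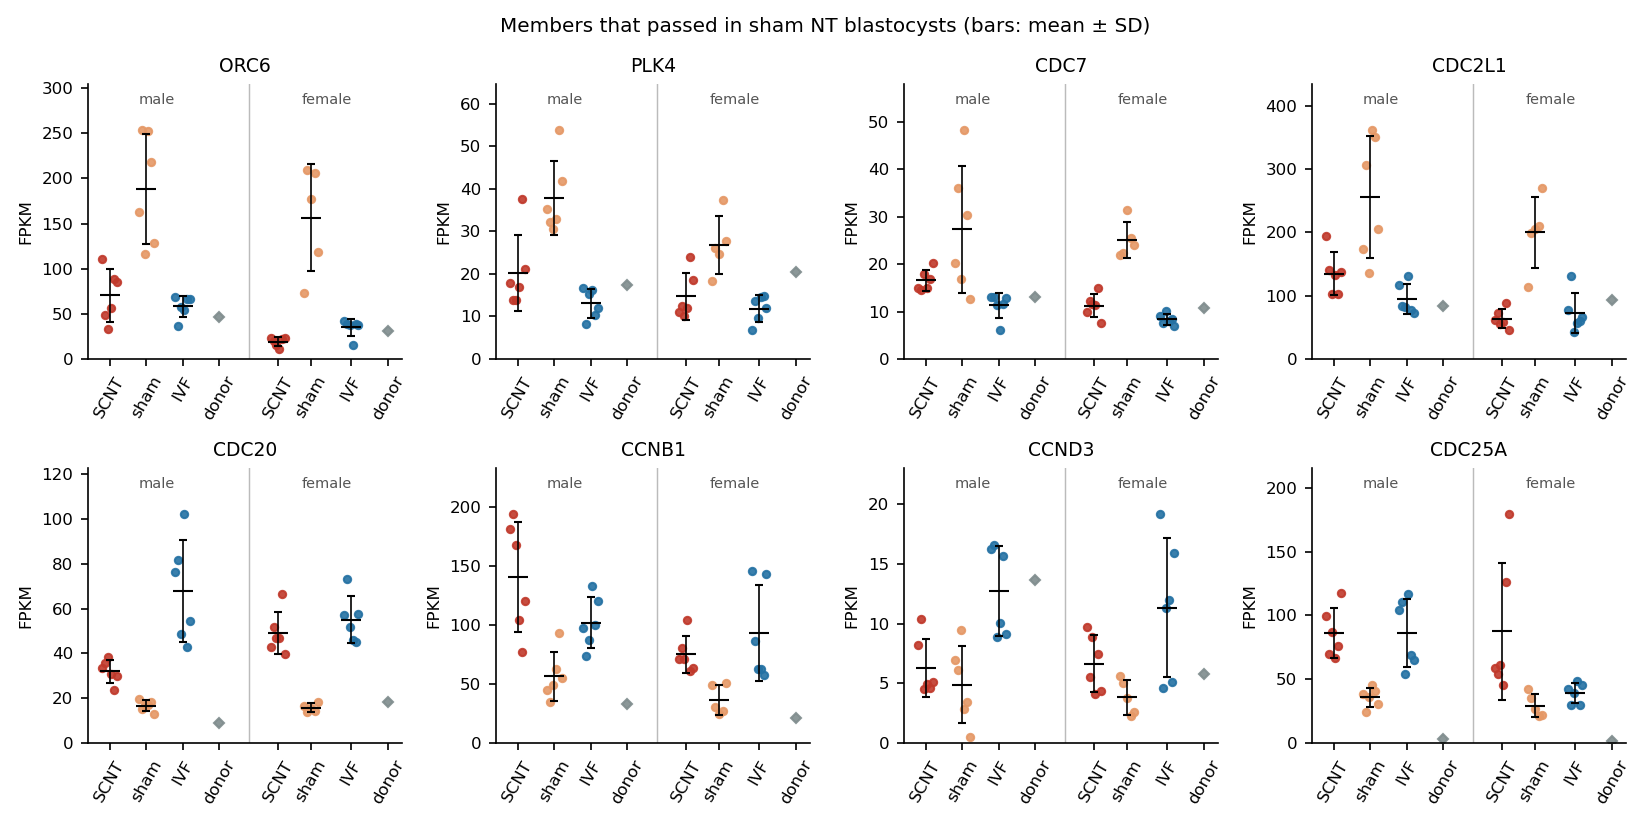
FPKM in each embryo and donor library of 8 members that differed between sham NT-BLs and IVF-BLs: ORC6, PLK4, CDC7, CDC2L1, CDC20, CCNB1, CCND3 and CDC25A; columns run SCNT-BLs, sham NT-BLs, IVF-BLs and donor cells for males and then for females, and bars give mean ± SD (n = 6, or 5 for female sham NT-BLs), cut at 0. ORC6 and PLK4 sit above the IVF-BLs in every sham NT-BL, and CDC20 below them, at no more than 19.8 FPKM.

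From a list of other mitosis and checkpoint genes, 30 rows were tested in sham NT-BLs against IVF-BLs, with 6 higher and 5 lower in males, against 6.13% and 5.96% of all genes, and 6 higher and 1 lower in females, against 7.03% and 6.47%. The median log2 difference was 0.29 in males, beside -0.02 over all genes, and -0.30 in females, beside -0.09. SPC25, a subunit of the NDC80 complex that holds microtubules at the kinetochore, was at 80.2 to 235 FPKM (median 174) in male sham NT-BLs and 6.19 to 31.6 FPKM (median 15.1) in male IVF-BLs (log2 difference 3.32, adjusted p = 2.2e-05). Female SPC25 was at 97.8, 201, 220.5, 173 and 192 FPKM in sham NT-BLs and 9.16 to 34.2 FPKM (median 19.0) in IVF-BLs (3.19, adjusted p = 4.83e-05), and the groups did not overlap in either sex. Its partners NDC80 (1.27 in males, 1.21 in females) and NUF2 (1.34 and 1.52) were higher too, INCENP, the scaffold of the AURKB complex, was lower (-1.92 and -1.27), and SPC24, the fourth subunit of the NDC80 complex, was lower in males (-1.68). In SCNT-BLs against IVF-BLs the list had 1 higher and 2 lower in males, against 3.34% and 3.64% of all genes, and none in females, against 0.21% and 0.111% (5 of 30 at an unadjusted p under 0.05). Against sham NT-BLs it had 5 higher and 5 lower in male SCNT-BLs, against 5.67% and 6.13%, and 3 higher and 3 lower in female SCNT-BLs, against 5.21% and 6.07%.

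CDC2L1, the kinase CDK11B, which is known for roles in splicing and mitosis, was higher in sham NT-BLs of both sexes. It was at 102 to 194 FPKM (median 134) in male SCNT-BLs, 136 to 361 FPKM (median 256) in male sham NT-BLs and 73.3 to 131 FPKM (median 83.3) in male IVF-BLs, with log2 differences of 1.37 ± 0.26 (SE), adjusted p = 0.00252 for sham NT-BLs against IVF-BLs and -0.86 ± 0.26 (SE), adjusted p = 0.043 for SCNT-BLs against sham NT-BLs. The second of these calls was lost without replicate 2, 3, 4, 5 or 6 of the male SCNT-BLs, or replicate 2, 4, 5 or 6 of the male sham NT-BLs (adjusted p up to 0.0966), and also with no filter (adjusted p = 0.0677). Female CDC2L1 was 45.3 to 88.5 FPKM (median 60.3) in SCNT-BLs, 114, 199.5, 205, 210.0 and 270.3 FPKM in sham NT-BLs and 42.7 to 132 FPKM (median 63.0) in IVF-BLs, with log2 differences of 1.49 ± 0.28 (SE), adjusted p = 0.00258 for sham NT-BLs against IVF-BLs and -1.61 ± 0.25 (SE), adjusted p = 0.000969 for SCNT-BLs against sham NT-BLs.

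The co-chaperone CDC37 was lower in both manipulated male groups, at 73.7 to 196 FPKM (median 136) in male SCNT-BLs, 64.8 to 174 FPKM (median 86.4) in male sham NT-BLs and 173 to 262 FPKM (median 236) in male IVF-BLs. The log2 difference from IVF-BLs was -1.14 ± 0.24 (SE), adjusted p = 0.0048 for sham NT-BLs and -0.82 ± 0.23 (SE), adjusted p = 0.0392 for SCNT-BLs, and the SCNT call was lost without replicate 1, 3, 5 or 6 of the male SCNT-BLs, or replicate 1, 3, 4 or 5 of the male IVF-BLs (adjusted p up to 0.0881), and also with all 6 blastocyst groups in 1 fit (adjusted p = 0.114) and with no filter (adjusted p = 0.0705). Female CDC37 was 30.0 to 195 FPKM in SCNT-BLs and 160 to 300 FPKM in IVF-BLs. The female sham NT-BLs had 111, 150, 179, 176 and 114 FPKM of CDC37, and no female comparison was called. CDC37L1 was at 8.87 to 24.3 FPKM (median 11.2) in male SCNT-BLs and 3.57 to 7.87 FPKM (median 5.08) in male IVF-BLs, without overlap (1.24 ± 0.30 (SE), adjusted p = 0.0202), a call lost with all 6 blastocyst groups in 1 fit (adjusted p = 0.251). CDC123 was at 12.7, 9.73, 7.52, 3.52 and 13.9 FPKM in female sham NT-BLs and 20.3 to 38.8 FPKM (median 29.9) in female IVF-BLs, without overlap (-1.67 ± 0.31 (SE), adjusted p = 0.00227). Male CDC123 was 8.95 to 21.1 FPKM in sham NT-BLs and 15.4 to 39.9 FPKM in IVF-BLs, with no call. MCM3AP was at 6.11 to 9.32 FPKM (median 6.85) in male SCNT-BLs and 11.01 to 16.7 FPKM (median 14.5) in male sham NT-BLs, without overlap (-0.89 ± 0.23 (SE), adjusted p = 0.0187).

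Some marker genes of blastocyst lineages also differed between sham NT-BLs and IVF-BLs. Inner cell mass markers summed to 22.1 to 92.5 FPKM in male sham NT-BLs and 85.0 to 117 FPKM in male IVF-BLs, and to 60.9 to 89.9 FPKM in female sham NT-BLs and 94.1 to 223 FPKM in female IVF-BLs. Of the 6 markers measured, 1 was called in each sex, POU5F1, a transcription factor of pluripotent cells (log2 difference -1.69 in males and -1.97 in females). POU5F1 averaged 15.6 FPKM in male sham NT-BLs against 51.9 FPKM in male IVF-BLs, and 18.1 against 75.3 FPKM in females. Means of the uncalled markers went both ways. In males LIN28B, SALL4 and KLF17 were higher in sham NT-BLs, and NANOG and SOX2 were lower. In females LIN28B was higher and the others were lower. Among 9 trophectoderm markers tested, 1 was lower in sham NT-BLs of each sex, and none was higher. The genes differed, TFAP2C in males (log2 difference -1.11) and TEAD4 in females (-1.27). Over all genes 5.96% were lower in males and 6.47% in females. Every one of the 6 inner cell mass markers averaged over 1 FPKM in each blastocyst group, and EOMES of the trophectoderm list averaged under 0.1 FPKM in all of them. The summed trophectoderm markers were 3227 to 6471 FPKM in male sham NT-BLs and 4713 to 6491 FPKM in male IVF-BLs, and 3193 to 5802 FPKM in female sham NT-BLs and 1771 to 6815 FPKM in female IVF-BLs. Relative depth had a median of 0.630 in male sham NT-BLs and 0.920 in male IVF-BLs, and of 0.678 in female sham NT-BLs and 1.11 in female IVF-BLs, and its ranges overlapped in males only. Of the primitive endoderm markers, GATA4 was lower in male sham NT-BLs than in IVF-BLs (-1.22, adjusted p = 0.0158) and GATA6 in female sham NT-BLs (-0.95, adjusted p = 0.018), 1 of 5 tested in males and 1 of 4 in females, and FOXA2 averaged under 0.1 FPKM in every blastocyst group. HNF4A of that list was not called. It averaged 49.0 FPKM in male sham NT-BLs against 28.5 FPKM in male IVF-BLs, and 65.5 against 19.7 FPKM in females. The mean of PDGFRA, also not called, was lower in male and higher in female sham NT-BLs than in IVF-BLs. The sums of the primitive endoderm markers overlapped, at 87.5 to 274 FPKM in male sham NT-BLs and 107 to 246 FPKM in male IVF-BLs. In females they were 104 to 329 FPKM in sham NT-BLs and 140.1 to 301 FPKM in IVF-BLs. The part of these markers and of depth in the differences of sham NT-BLs was not tested. In male SCNT-BLs against IVF-BLs no inner cell mass marker was called. Of the 9 trophectoderm markers 1 was higher (GATA3) and 2 were lower (GATA2 and TEAD4). GATA6 of the primitive endoderm list was higher, 1 of 5 tested (0.85, adjusted p = 0.00737). Over all genes 3.34% were higher and 3.64% lower. In females none of these 3 lists was called, where 0.21% of all genes were higher and 0.111% lower. Against sham NT-BLs, GATA6 was higher in SCNT-BLs of both sexes (1.21, adjusted p = 0.00189 in males and 0.82, adjusted p = 0.0295 in females). It was 1 of 4 tested from its list. Of 6 inner cell mass markers tested, POU5F1 was higher in males, and POU5F1 and SALL4 in females. Of 9 trophectoderm markers tested, CDX2 and TFAP2C were higher in males, and TEAD4 in females. No marker of these 3 lists was lower. Over all genes 5.67% were higher in males and 5.21% in females. Of the fibroblast genes, none was called against IVF-BLs. Against sham NT-BLs, COL1A1 and COL1A2 of 7 tested were lower in male SCNT-BLs, where 6.13% of all genes were. THY1 of 6 tested was higher in female SCNT-BLs, where 5.21% of all genes were. Of lists of 8 cumulus and 10 oocyte genes, GDF9 of the oocyte list was the single gene called within a sex, lower in female SCNT-BLs than in sham NT-BLs (-0.97, adjusted p = 0.0121). The part of these markers in the differences of SCNT-BLs was not tested.

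In female SCNT-BLs against IVF-BLs, the members nearest the threshold were MCM4 row 1, given above, CDK6 (log2 difference -1.53 ± 0.48 (SE), adjusted p = 0.211) and CDC25A (0.98 ± 0.31 (SE), adjusted p = 0.216). No member was called when female SCNT-BL replicates 5 and 6, the libraries with the fewest genes detected, were left out, nor when any single embryo was left out. A p that misses the threshold does not show that the female groups were alike: the standard errors of these 3 differences ran from 0.23 to 0.48.

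Whether origin acted differently in the sexes was asked by a sex-by-origin term in limma, the female difference from IVF-BLs minus the male one. For SCNT-BLs, 4 of 81 members were called, against 1.91% of 15425 genes, and for sham NT-BLs none of 81, against 1.22% of 15375 genes, with 14 of 81 members at an unadjusted p under 0.05; 1 member was called without male sham NT-BL replicate 2 or without female sham NT-BL replicate 5. Of the 4 terms that of MCM5 was the largest, 1.95 ± 0.30 (SE), adjusted p = 0.00109, and it held when each of the 24 embryos was left out. The SCNT-BL difference from IVF-BLs was 0.04 in females and -1.91 in males. MCM4 row 2 (1.51 ± 0.38 (SE), adjusted p = 0.0408), PLK1 (1.30 ± 0.35 (SE), adjusted p = 0.0467) and ORC4 (-1.25 ± 0.31 (SE), adjusted p = 0.0372) were also called. These 3 did not hold when each embryo was left out, and without female SCNT-BL replicates 5 and 6 only 1 of the 4 calls, that of MCM5, was left: MCM4 row 2 was lost in 13 of 24 (adjusted p up to 0.0718), ORC4 in 12 of 24 (up to 0.0625) and PLK1 in 18 of 24 (up to 0.0892). The terms of MCM4 row 2 and PLK1 were also lost with no filter and with median-centring. For PLK1 the differences from IVF-BLs were 0.77 in females, where SCNT-BLs had 51.8 to 94.0 FPKM (median 60.4) and IVF-BLs 24.4 to 66.2 FPKM (median 38.2), and -0.53 in males, where SCNT-BLs had 30.4 to 66.3 FPKM (median 45.5) and IVF-BLs 41.6 to 103 FPKM (median 62.2).

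SCNT-BLs were finally set beside the fibroblasts whose nuclei they carried. With 1 donor library per sex there was no test, and a difference over 2-fold on log2(FPKM + 1) was counted. In males 23 of 82 members were over 2-fold higher and 19 lower in SCNT-BLs than in donor cells, against 19.8% and 26.1% of all genes. In females 28 of 81 were higher and 14 lower, against 20.9% and 27.3% of all genes. Past 2-fold in both sexes were 18 of 80 members higher and 10 lower, against 14.1% and 20.0% of all genes.

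CDC25A had the widest gap among the higher members, with mean FPKM of 86.1 in male SCNT-BLs against 3.41 in male donor cells and 87.5 in female SCNT-BLs against 1.71 in female donor cells (log2 differences 4.30 and 5.03). MCM4 row 1 followed, at 93.2 FPKM in male SCNT-BLs against 6.50 FPKM in male donor cells and 36.1 FPKM in female SCNT-BLs against 2.70 FPKM in female donor cells. ORC1 (2.41 in males, 3.13 in females), GINS3 (2.40 and 2.13), MCM4 row 2 (1.97 and 2.60) and E2F7 (1.82 and 2.16) came next. Among the ORC genes, CDC6 and MCM2 to MCM7, ORC1 and the MCM4 rows were over 2-fold higher in both sexes, and no other was. ORC2, ORC3, ORC4 and MCM3 were higher in both sexes but not past 2-fold in both. MCM2 (-1.37 in males, -0.28 in females) and MCM7 (-0.52 and -0.36) were lower. CDC6, MCM5, MCM6, ORC5 and ORC6 went in opposite directions in the sexes. MCM5 was at 56.0 FPKM in the male donor library, above all 6 male SCNT-BLs. In the female donor library MCM5 was at 48.0 FPKM, inside the range of the female SCNT-BLs.

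Of the lower members, CDK6, a kinase of the D cyclins, averaged 1.58 FPKM in male SCNT-BLs against 43.2 FPKM in male donor cells, and 0.738 FPKM in female SCNT-BLs against 29.7 FPKM in female donor cells. Its usual partner CCND1 averaged 0.569 FPKM in male SCNT-BLs against 5.92 FPKM in male donor cells, and 0.326 FPKM in female SCNT-BLs against 20.9 FPKM in female donor cells. The mitochondrial AURKAIP1 (-3.83 and -2.78), CDK3 (-2.13 and -3.68), the phosphatase CDC25B (-2.08 and -2.11) and CDC45 (-2.73 and -1.64) were lower in SCNT-BLs of both sexes, as were CDK4, CCND2, MCM8 and MCM9.

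Donor levels of the other members described above are given as male and female FPKM. Among helicase genes they were 35.5 and 34.4 for MCM2, 29.5 and 13.6 for MCM3, 226 and 35.1 for MCM6, 89.3 and 87.5 for MCM7, 27.7 and 14.5 for MCM10 and 5.14 and 5.47 for MCM9. For other origin factors they were 46.9 and 30.5 for ORC6, 23.6 and 35.6 for ORC4, 14.1 and 11.4 for ORC1, 17.6 and 18.1 for GINS1 and 13.01 and 10.8 for CDC7. The ORC1 and MCM10 values lay below those of every SCNT-BL of the same sex. Among E2F factors, cyclins and kinases the donor libraries had 19.2 and 20.4 for E2F4, 4.22 and 10.6 for E2F5, 4.71 and 2.15 for E2F6, 1.71 and 0.612 for E2F7, 33.4 and 21.1 for CCNB1, 36.8 and 91.8 for CCND2, 13.7 and 5.81 for CCND3, 78.9 and 16.3 for CDK2, 15.4 and 22.5 for CDK3 and 101 and 64.0 for CDK9. CDK9 in the male donor library was above every male SCNT-BL, and in the female one it was within the range of the female SCNT-BLs. Mitotic genes had 9.14 and 18.5 for CDC20, 17.1 and 19.6 for CDC16, 26.6 and 10.1 for CDC23, 35.9 and 50.2 for PLK1, 54.3 and 128 for PLK2, 23.8 and 24.1 for PLK3, 17.3 and 20.5 for PLK4, 48.4 and 21.6 for PLK1S1, 155 and 50.2 for AURKA, 16.6 and 7.86 for AURKB, 34.5 and 20.5 for BUB1 and 109 and 60.1 for BUB3. AURKA was lower in both donor libraries than in any blastocyst. The remaining named members had 84.4 and 92.6 for CDC2L1, 99.3 and 109.8 for CDC37, 24.3 and 26.6 for CDC37L1, 6.42 and 16.6 for CDC123 and 18.2 and 9.75 for MCM3AP.

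**Figure D4:**
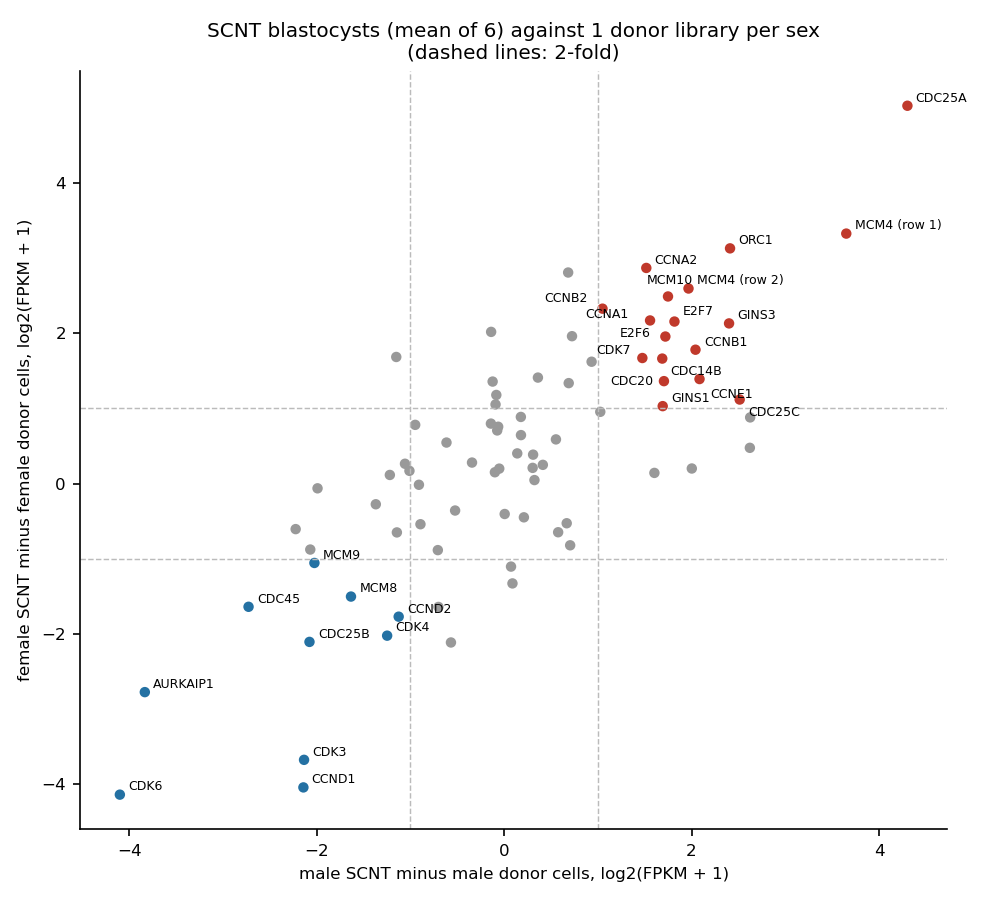
Log2(mean FPKM + 1) of SCNT-BLs (n = 6 per sex) minus log2(FPKM + 1) of the donor fibroblast library of that sex (1 library) for each member, males on the horizontal and females on the vertical axis; dashed lines mark 2-fold, and labelled points pass it in both sexes. CDC25A stands alone at the upper right, and CDK6, CCND1, CDK3 and AURKAIP1 at the lower left.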

How the data were processed

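RNA of 35 single blastocysts and 2 donor fibroblast libraries was measured, and the deposited table holds FPKM for 22628 gene rows in 37 columns. The authors trimmed adapters with Trim Galore, aligned the reads to the bovine build UMD 3.1 with TopHat, and estimated FPKM of known transcripts with Cufflinks. Versions are not given in the sources used here. The amplification does not keep strand, so reads of a gene and of one overlapping it on the other strand cannot be told apart, and FPKM hold no read counts.

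Rows matching the symbol rule were kept; 81 matched the same symbol in RefSeq (ARS-UCD2.0, used for names only) and 2 an older symbol. Genes with a mean over 0.1 FPKM in the embryos compared were tested by limma 3.58.1 (R 4.3.3, lmFit and eBayes with trend) on log2(FPKM + 1); p-values were adjusted across every gene in a fit by Benjamini-Hochberg and called under 0.05. Because of the pseudocount of 1 the differences understate the change of low genes. Each embryo is 1 replicate, so p-values measure the spread between embryos, and no label says which embryos shared a collection. SCNT-BLs and donor cells were compared by log2(mean + 1), with no test. Levels are given for members called in any comparison, for MCM2 to MCM7 and for the member with the highest mean of each family. They are group ranges, mostly with medians, or single values for female sham NT-BLs. For some called members only the groups of the call are given. Donor values are given for the same members, for CDK1 and for the 6 members with the largest difference in each direction. Tables were handled with Python 3.11.15 and pandas 2.3.3, and the test was checked on simulated data. The members and gene lists were chosen with earlier results of these data known. The results of 1 gene list are not reported here. Alternatives were a pseudocount of 0.1, a filter at a mean of 1 FPKM, no filter, median-centring, a replicate block, all 6 blastocyst groups in 1 fit, each embryo left out and, added after seeing the data, female SCNT-BL replicates 5 and 6 left out. The study's own test used reads and was not repeated.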

Additional observations from a re-analysis of the deposited data

Results flagged for a closer look

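In 30 of 252 groups of embryos examined, over the 42 members described by group, 1 embryo stood far from the rest of its group. The cutoff, on the gap to the next embryo as a share of the range, flags about 1 in 20 groups of normally distributed values. Whether FPKM are so distributed was not tested, members share embryos, and the rate over all genes was not computed. The count of 30 therefore cannot be read as an excess. Female SCNT-BL replicate 6, among the libraries with the fewest genes detected, accounted for 6 of the 30. It had 296 FPKM of ORC1, where the other 5 female SCNT-BLs had 51.9 to 86.4 FPKM, 775 FPKM of MCM4 row 2, where they had 183 to 327 FPKM, and 144 FPKM of BUB1, where they had 27.8 to 46.9 FPKM. The same embryo had 109.6 FPKM of CDC16 against 19.8 to 35.8 FPKM, 64.7 FPKM of PLK2 against 12.9 to 30.4 FPKM, and 5.93 FPKM of AURKB against 14.3 to 17.4 FPKM. Among the other female SCNT-BLs, replicate 5 stood apart for E2F4 (88.2 FPKM), replicate 4 for CDC123 (32.7 FPKM) and replicate 1 for BUB3 (55.4 FPKM).

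Female sham NT-BL replicate 5 had 454 FPKM of MCM6, where the other 4 had 95.4 to 145 FPKM, 78.9 FPKM of MCM3, where they had 31.6 to 42.7 FPKM, and 158 FPKM of AURKA, where they had 273 to 301 FPKM. Replicate 4 of that group stood apart for CDK3 (6.67 FPKM) and E2F7 (18.4 FPKM) and replicate 1 for E2F4 (81.1 FPKM). In male sham NT-BLs, replicate 3 was high for MCM4 row 1 (125 FPKM, the others 13.6 to 31.5 FPKM) and CDC16 (27.8 FPKM), replicate 4 for BUB3 (205 FPKM) and CDC23 (14.4 FPKM), and replicate 5 for CDK2 (156 FPKM). In male SCNT-BLs, replicate 5 was high for PLK4 (37.5 FPKM) and replicate 1 for MCM9 (1.16 FPKM). In male IVF-BLs, replicate 4 was high for AURKA (518 FPKM) and ORC4 (62.4 FPKM) and low for CDC7 (6.09 FPKM), replicate 2 was high for MCM4 row 2 (541 FPKM), replicate 6 for CDC23 (9.21 FPKM), and replicate 3 was low for E2F7 (5.29 FPKM). In female IVF-BLs, replicate 3 was high for E2F6 (18.3 FPKM) and replicate 4 low for ORC6 (15.6 FPKM).

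The effect of SCNT against IVF differed between the sexes by limma's sex-by-origin term for MCM5 (1.95, adjusted p = 0.00109), MCM4 row 2 (1.51, adjusted p = 0.0408), PLK1 (1.30, adjusted p = 0.0467) and ORC4 (-1.25, adjusted p = 0.0372). Sex, flow cell and donor population cannot be told apart in these terms.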

How the results depend on the processing

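Of the 74 member calls, none changed sign under any alternative, 44 held under every one, and 50 held without each embryo in turn. Calls lost numbered 1 with a pseudocount of 0.1, 0 with the filter at 1 FPKM, 12 with no filter, 5 with median-centring, 9 with all 6 blastocyst groups in 1 fit and 4 without female SCNT-BL replicates 5 and 6, an alternative chosen after seeing the data. With the replicate block 23 calls were lost. Embryos that share a replicate number share nothing else in the labels, and their deviations correlated by -0.239 to 0.077, so the replicate numbers were not taken as pairs. With the replicate block, the number of members called fell to 10 of 17 for female sham NT-BLs against IVF-BLs, to 5 of 8 for female SCNT-BLs against sham NT-BLs, and to 1 of 4 for the sex-by-origin term of SCNT-BLs.

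Counts that moved by over 1.5 times were these. Female SCNT-BLs against sham NT-BLs gave 14 members with all 6 blastocyst groups in 1 fit and 13 without female SCNT-BL replicates 5 and 6, against 8. The sex-by-origin term of SCNT-BLs gave 2 with no filter, 2 with median-centring and 1 without female SCNT-BL replicates 5 and 6, against 4. The causes were not tested. Leaving out each embryo in turn gave 11 to 16 members for female sham NT-BLs against IVF-BLs, 6 to 11 for female SCNT-BLs against sham NT-BLs, 1 to 4 for the sex-by-origin term of SCNT-BLs and 0 to 1 for that of sham NT-BLs. It gave 11 to 14 for male SCNT-BLs against IVF-BLs, 11 to 19 for male sham NT-BLs against IVF-BLs and 13 to 20 for male SCNT-BLs against sham NT-BLs. Against donor cells the members past 2-fold numbered 39 to 42 in males and 39 to 44 in females, with 42 in each when all embryos were used. FPKM carry no read counts, so counting error could not be given for any value.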
